A study of Mus musculus with 12 samples.

Results

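The genes described here are 33 members of the pathways that take up and burn glucose and of the machinery that senses oxygen, read in cells sorted as microglia from mouse brain. They were chosen by gene symbol: 2 transporters, 3 hexokinases, 7 genes of the isomerase and phosphofructokinase steps and their regulators, 7 enzymes from aldolase to pyruvate kinase, 4 genes of lactate and pyruvate fate, 5 of the pentose phosphate pathway and 5 of oxygen sensing. All 33 were among the 36491 genes of the count table, and all 33 were among the 18875 genes that had enough counts to be tested. The rule names symbols and uses no measured value.

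Glycolysis splits glucose to pyruvate in the cytosol. Pyruvate is then reduced to lactate by lactate dehydrogenase or carried into mitochondria and oxidised by pyruvate dehydrogenase, which the pyruvate dehydrogenase kinases switch off. The pentose phosphate pathway branches off at glucose 6-phosphate and yields NADPH and ribose. HIF-1α, a transcription factor degraded when oxygen is present, drives many glycolytic genes. Microglia are the resident macrophages of the brain, and macrophages given lipopolysaccharide (LPS), a bacterial cell wall component sensed by Toll-like receptor 4, are known for a turn to glycolysis and lactate release.

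All mice were wild type C57BL/6J at 6 months of age, had a bone marrow transplant, and later received food with PLX5622, which blocks the receptor for colony-stimulating factor 1 and so removes microglia, during 2 weeks. Standard chow followed, and after 6 weeks the mice got 50 µg of LPS or saline into the peritoneum and cells were taken 6 hours later. The 4 groups were unshielded LPS, unshielded without LPS (saline), shielded LPS and shielded without LPS (saline), with 3 libraries each, where shielded means that the head was shielded during the transplant procedure. The sort was magnetic and RNA was linearly amplified. Each library holds the RNA of many cells, and fewer cells of a type and less RNA per cell cannot be told apart in any value below. The treatment field of shielded libraries 2 and 3 without LPS reads LPS, against their titles; the titles were followed.

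Several facts of the whole series touch the values. Library totals ran from 56776710 to 60495968 counts in unshielded LPS mice, 18090977 to 40792878 in unshielded mice without LPS, 29794946 to 40730784 in shielded LPS mice and 28770354 to 42931839 in shielded mice without LPS. A check list of 10 LPS-response genes summed to 2134 to 3198 CPM (counts scaled to library size) in unshielded LPS libraries, against 282 to 339 CPM without LPS, and to 3261 to 4662 CPM in shielded LPS libraries, against 217 to 319 CPM without LPS. The libraries with conflicting fields lay with those without LPS. All 10 microglia markers were detected in every group, and they summed to 12781 to 13950.2 CPM in unshielded LPS libraries, 15399.5 to 18425 CPM in unshielded libraries without LPS, 19157 to 22123 CPM in shielded LPS libraries and 25348 to 30221 CPM in shielded libraries without LPS. The 10 markers of marrow-derived brain macrophages summed to 81171 to 106577 CPM in unshielded LPS, 58542 to 88997 CPM in unshielded no-LPS, 3089 to 5001 CPM in shielded LPS and 6841 to 24024 CPM in shielded no-LPS libraries. These 10 were very uneven in level, with a mean log2 CPM of only 7.74 to 7.96 in unshielded LPS and 4.53 to 5.42 in shielded LPS libraries. With LPS 5 rose and 2 fell in unshielded mice, and 3 rose and 6 fell in shielded mice. T cell markers summed to at most 1.27 CPM and erythroid markers to at most 1.99 CPM in any library. Monocyte markers summed to 409 to 594 CPM in unshielded LPS, 164 to 219 CPM in unshielded no-LPS, 166 to 281 CPM in shielded LPS and 65.4 to 116 CPM in shielded no-LPS libraries, and with LPS 7 of the 8 rose in unshielded and 6 in shielded mice (edgeR). Neutrophil markers summed to 288 to 1072 CPM in unshielded LPS, 64.0 to 172 CPM in unshielded no-LPS, 321 to 542 CPM in shielded LPS and 183 to 410.5 CPM in shielded no-LPS libraries, and 6 of the 12 rose in unshielded and 2 in shielded mice. Endothelial markers stood at 122 to 196 CPM in unshielded LPS, 324 to 359 CPM in unshielded no-LPS, 122 to 161 CPM in shielded LPS and 230.5 to 369.8 CPM in shielded no-LPS libraries, with 7 of the 9 lower after LPS in unshielded and 6 in shielded mice. B cell markers stood at 23.9 to 45.5 CPM in unshielded LPS, 244 to 291 CPM in unshielded no-LPS, 36.9 to 46.6 CPM in shielded LPS and 317 to 381 CPM in shielded no-LPS libraries, with 2 of the 3 tested lower in each kind of mouse. The part of these markers in the LPS results was not tested.

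Most members were higher after LPS, and in what follows rises and falls are log2 fold changes ± SE from edgeR, LPS over no LPS. In unshielded mice 19 of the 33 were higher and 2 lower at an edgeR adjusted p below 0.05, where 24.3% of all tested genes were higher and 18.8% lower. In shielded mice 23 were higher and 5 lower, where 32.4% of all tested genes were higher and 35.1% lower. The members' median log2 fold change was 0.39 in unshielded and 0.81 in shielded mice, against -0.06 and -0.14 over all genes tested. With plain library totals in place of TMM scaling these medians over all genes were -0.36 in unshielded and -0.49 in shielded mice. The 33 genes together took 0.721 ± 0.0862% of scaled counts in unshielded LPS libraries, against 0.409 ± 0.0158% without LPS, and 1.03 ± 0.150% in shielded LPS libraries, against 0.449 ± 0.0145% without LPS (SD, n = 3 each). In all, 17 members rose in both kinds of mice: Slc2a1, Slc16a3, Pfkl, Pfkfb3, Tigar, Aldoa, Tpi1, Gapdh, Pgk1, Pgam1, Eno1, Pkm, Ldha, Pdk4, Pdha1, Pgd and Hif1a. The risen members moved together by library. Of the 23 called higher in shielded mice, LPS library 3 was lowest of its group for 22 and LPS library 1 highest for 20. Of the 19 called higher in unshielded mice, LPS library 2 was highest for 18.

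**Figure D1:**
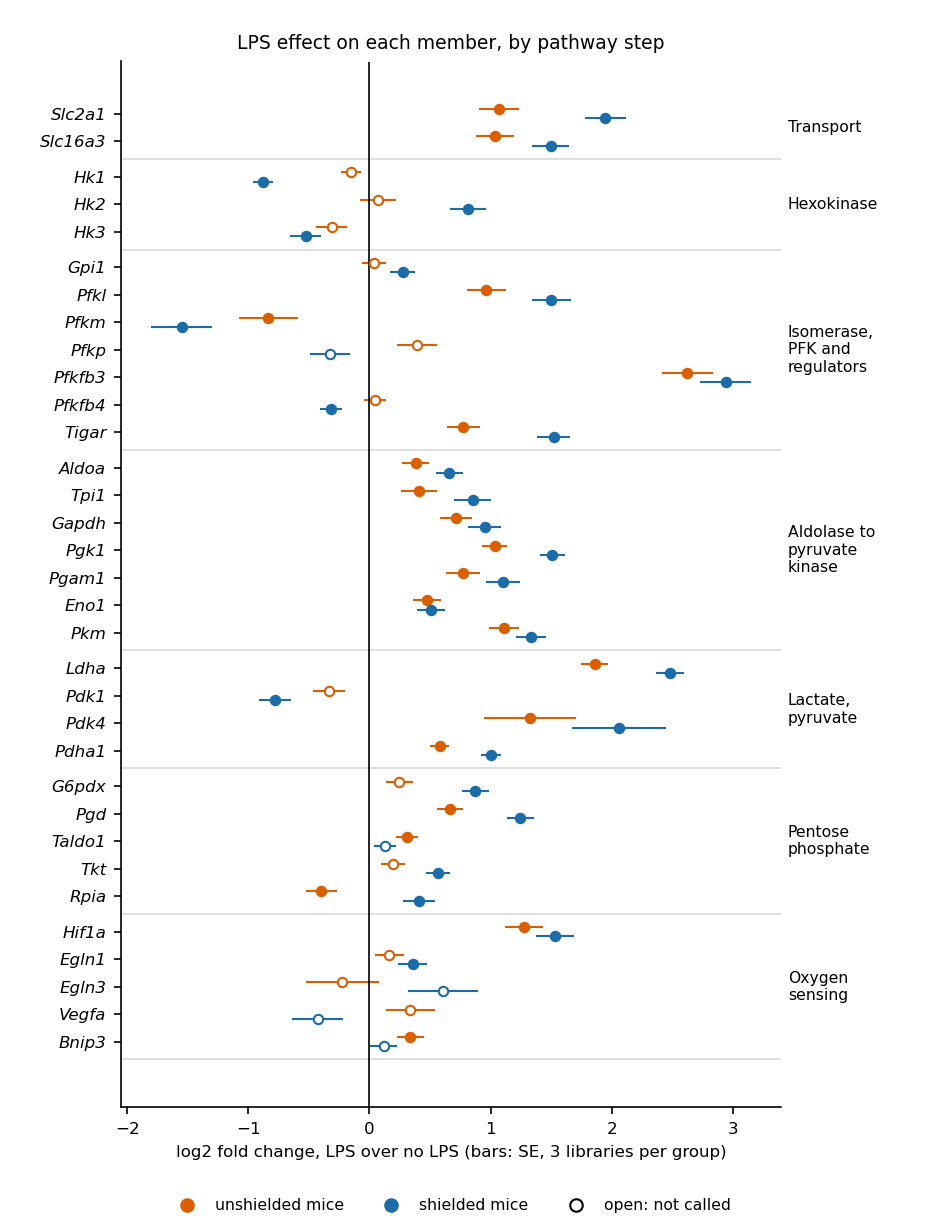
Log2 fold change of each member, LPS over no LPS, in unshielded mice (orange) and shielded mice (blue), by pathway step; bars are the SE of the fit over 3 libraries per group and open symbols did not pass an edgeR adjusted p of 0.05. All 7 enzymes from aldolase to pyruvate kinase lie right of 0 in both, whereas hexokinases and phosphofructokinases split by isoform.

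Promoter sequences were looked up because many targets of HIF-1 carry a short core of 5 bases in their promoters. Those printed come from members that rose in both kinds of mice. Promoters here are the 300 bases from 250 before to 50 after a RefSeq gene start on build GRCm38.p6, printed on the gene's strand. The 3 with the most core letters among those members are shown, with ACGTG or GCGTG on either strand in capitals. A CACGTG run matches on both strands and counts as 2 matches. The Ldha promoter (chr7:46845554-46845853, plus strand) held 7 matches at 5 places, the Pfkfb3 promoter (chr2:11502041-11502340, minus strand) 4 matches at 3 places and the Pdha1 promoter (chrX:160138381-160138680, minus strand) 4 at 4 places.
Ldha: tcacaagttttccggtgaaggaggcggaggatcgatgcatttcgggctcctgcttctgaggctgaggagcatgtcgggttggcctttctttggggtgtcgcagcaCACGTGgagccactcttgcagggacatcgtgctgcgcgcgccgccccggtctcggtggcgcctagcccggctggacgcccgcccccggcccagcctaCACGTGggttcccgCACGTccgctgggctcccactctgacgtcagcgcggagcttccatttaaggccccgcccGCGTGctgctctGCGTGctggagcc
Pfkfb3: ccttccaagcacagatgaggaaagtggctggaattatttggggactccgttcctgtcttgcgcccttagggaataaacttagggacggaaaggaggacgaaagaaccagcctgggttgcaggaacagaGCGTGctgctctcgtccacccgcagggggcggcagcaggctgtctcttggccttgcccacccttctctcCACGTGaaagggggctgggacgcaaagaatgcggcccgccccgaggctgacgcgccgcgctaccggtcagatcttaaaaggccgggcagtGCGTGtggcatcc
Pdha1: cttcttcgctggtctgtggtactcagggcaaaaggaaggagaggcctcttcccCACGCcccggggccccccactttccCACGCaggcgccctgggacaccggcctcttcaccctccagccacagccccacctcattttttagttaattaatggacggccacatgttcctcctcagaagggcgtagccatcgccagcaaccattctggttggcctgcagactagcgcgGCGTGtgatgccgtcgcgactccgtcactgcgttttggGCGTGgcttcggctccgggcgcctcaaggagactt
Of 47 RefSeq promoters of the 33 members 37 held at least 1 core (78.7%), against 43.8% of 32851 promoters of all genes. The members' promoters had a median GC content of 61%, against 52.67% over all promoters. Among promoters of 55 to 70% GC, 29 of 34 of the members held a core, against 61.5% of 11105 promoters. Some members outside the set that rose in both kinds of mice held as many matches as Pfkfb3 and Pdha1, though fewer than Ldha. Hk1 and Bnip3 each had a promoter with 5 matches at 4 places, and Pfkp had 4 matches. Of these, Hk1 was called lower in shielded mice alone, Bnip3 was called higher in unshielded mice alone, and Pfkp was not called in either. Other starts of Ldha and Pfkfb3 held 2 and 1 matches, and the Pdha1 matches were all GCGTG. These matches are letters only, and nothing was measured at them.

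Transport came first in the pathway and both members rose with LPS. Slc2a1, the glucose transporter GLUT1 (ENSMUSG00000028645), had 254, 287 and 282 CPM in unshielded LPS libraries, against 136, 128 and 129 CPM without LPS, and 519, 478 and 329.9 CPM in shielded LPS libraries, against 93.1, 137 and 114 CPM without LPS. The groups did not overlap in either kind of mouse, and shielded LPS library 3 was the lowest of its group. Its log2 fold change was 1.07 ± 0.16 (SE; edgeR adjusted p = 0.000217) in unshielded and 1.95 ± 0.17 (SE; edgeR adjusted p = 8.38e-07) in shielded mice. Slc16a3, the lactate exporter MCT4, had 76.5, 86.2 and 55.9 CPM in unshielded LPS libraries, against 36.2, 36.2 and 34.0 CPM without LPS, and 194, 163 and 131 CPM in shielded LPS libraries, against 57.8, 56.7 and 58.5 CPM without LPS. Again no LPS library overlapped one without LPS in the same kind of mouse. The log2 fold change was 1.04 ± 0.16 (SE; edgeR adjusted p = 0.000184) in unshielded and 1.49 ± 0.16 (SE; edgeR adjusted p = 4.28e-06) in shielded mice.

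Within the glucose and fructose transporters, compared per kb of exon, the mix of isoforms differed with LPS. Slc2a1 made up 52.2 ± 1.46% of the 6 transporters' summed CPM per kb in unshielded LPS libraries, against 37.6 ± 5.50% without LPS, and 67.0 ± 4.48% in shielded LPS libraries, against 17.9 ± 1.99% without LPS (SD, n = 3 each). Slc2a5, a fructose transporter that marks microglia, made up 5.74 ± 3.33% and 26.4 ± 11.7% in unshielded libraries with and without LPS, and 14.8 ± 3.29% and 65.7 ± 1.34% in shielded libraries with and without LPS. The level of Slc2a5 was 44.3, 19.2 and 21.6 CPM in unshielded LPS libraries, against 59.3, 158 and 65.2 CPM without LPS, and 83.7, 98.5 and 94.4 CPM in shielded LPS libraries, against 386, 458 and 378 CPM without LPS. It fell, with a log2 fold change of -1.72 ± 0.39 in unshielded mice (SE; edgeR adjusted p = 0.00441) and -2.14 ± 0.39 in shielded mice (edgeR adjusted p = 0.000668). Slc2a3, the glucose transporter GLUT3, rose by 0.90 ± 0.15 in unshielded and 1.59 ± 0.15 in shielded mice (edgeR adjusted p = 0.000326 and 1.60e-06). Slc2a6, a transporter of the same family, rose by 1.601 ± 0.24 and 1.44 ± 0.25 (edgeR adjusted p = 0.000312 and 0.000387).

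The 3 hexokinases, which trap glucose in the cell as glucose 6-phosphate, went different ways in shielded mice and none of them was called in unshielded mice. Hk2, the inducible isoform, had 629, 491 and 408 CPM in shielded LPS libraries, against 294, 317 and 259.6 CPM without LPS, and 275, 302 and 229 CPM in unshielded LPS libraries, against 247, 262 and 258 CPM without LPS. Its shielded groups did not overlap and its unshielded groups did. The log2 fold change was 0.81 ± 0.15 (SE; edgeR adjusted p = 0.000461) in shielded mice and 0.072 ± 0.15 in unshielded mice (edgeR adjusted p = 0.709). Hk1, the constitutive isoform of brain, had 28.3, 29.5 and 32.7 CPM in shielded LPS libraries, against 55.2, 55.6 and 55.5 CPM without LPS, and 55.4, 56.5 and 49.8 CPM in unshielded LPS libraries, against 63.6, 56.6 and 59.4 CPM without LPS. Its shielded LPS libraries lay below all 9 others. The log2 fold change was -0.88 ± 0.08 (SE; edgeR adjusted p = 1.60e-06) in shielded and -0.15 ± 0.08 in unshielded mice (edgeR adjusted p = 0.144). Hk3, the hexokinase of myeloid cells, fell, with a log2 fold change of -0.53 ± 0.13 in shielded mice (edgeR adjusted p = 0.00333). In unshielded mice its log2 fold change of -0.31 ± 0.13 missed the threshold (edgeR adjusted p = 0.0685), and it was called without unshielded LPS library 2 (-0.38). Per kb of exon Hk2 made up 72.2 ± 3.46% of the 3 hexokinases in shielded LPS libraries, against 50.2 ± 1.25% without LPS, and 57.8 ± 0.865% in unshielded LPS libraries, against 51.7 ± 1.37% without LPS. Neuronal and oligodendrocyte markers moved with the LPS groups of shielded mice, where 8 of 9 and 8 of 8 were called lower, and their summed levels were 37.3 to 187 and 425 to 1321 CPM in shielded LPS libraries, against 217 to 397 and 1777 to 2806 CPM in shielded libraries without LPS. In a fit with these levels as a covariate Hk1 and Hk3 were still lower in shielded mice, and Hk2 lost its call (0.22; edgeR adjusted p = 0.191).

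**Figure D2:**
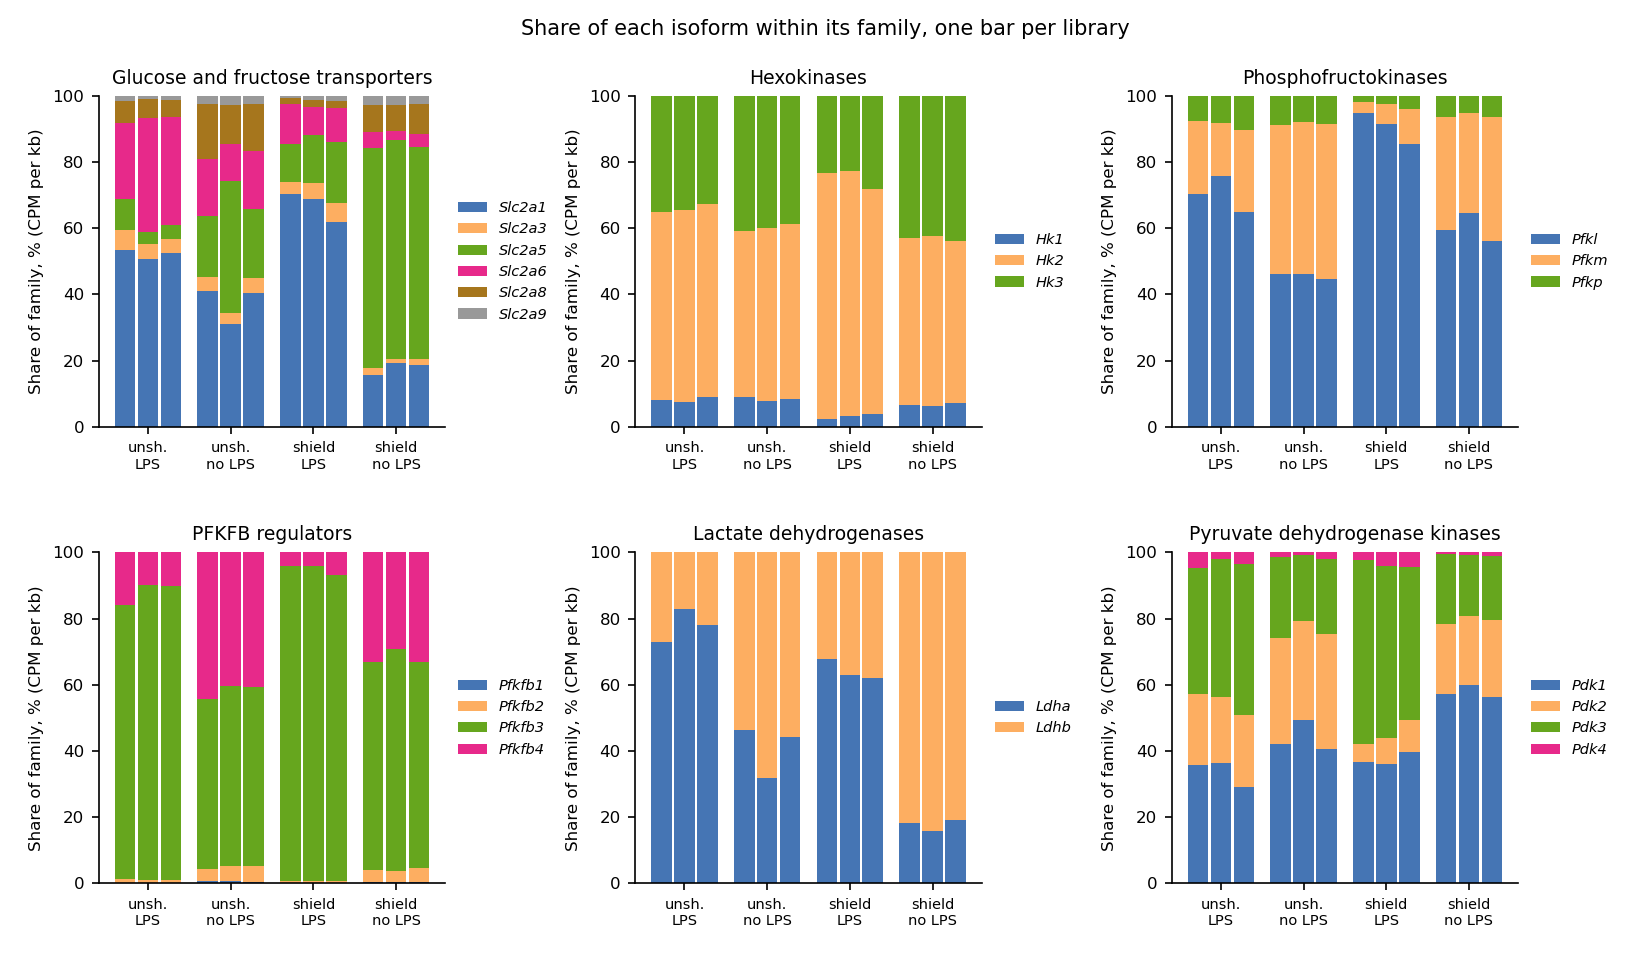
Share of each isoform of 6 enzyme and transporter families in each library, in percent of the family's summed CPM per kb of exon, 1 bar per library and 3 bars per group. Slc2a1, Pfkl, Pfkfb3 and Ldha take larger shares in every LPS library than in any library without LPS of the same kind of mouse, and Hk2 does so as well.

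Phosphofructokinase commits sugar to glycolysis, and its 3 isoforms moved apart. Pfkl, the liver-type subunit that immune cells also use, had 234, 279.6 and 188 CPM in unshielded LPS libraries, against 117, 124 and 118 CPM without LPS, and 555, 413 and 355 CPM in shielded LPS libraries, against 154, 155 and 158 CPM without LPS. No LPS library overlapped the others of its kind of mouse, with log2 fold changes of 0.96 ± 0.16 (SE; edgeR adjusted p = 0.000392) and 1.502 ± 0.16 (SE; edgeR adjusted p = 5.35e-06). Pfkm, the muscle-type subunit, had 36.5, 29.4 and 35.9 CPM in unshielded LPS libraries, against 57.0, 62.4 and 62.2 CPM without LPS, and 9.46, 13.4 and 22.4 CPM in shielded LPS libraries, against 44.1, 36.3 and 52.4 CPM without LPS. Under TMM scaling it was the only member that fell in both kinds of mice, while with library totals Hk1, Hk3 and Pdk1 were called lower in both as well. Pfkm fell, with a log2 fold change of -0.83 ± 0.24 and -1.55 ± 0.25 (edgeR adjusted p = 0.0167 in unshielded and 0.000271 in shielded mice). Its call in unshielded mice was lost without unshielded LPS library 2 (-0.72). Across shielded LPS libraries Pfkm ran in the same order as the neuronal marker sum, which was 37.3, 68.9 and 187 CPM in libraries 1 to 3. The part of neuronal RNA in this result was not tested beyond the covariate fit, in which Pfkm kept both calls. Its size varied, and over all alternatives the log2 fold change of Pfkm ran from -1.13 to -0.41 in unshielded and from -1.93 to -0.58 in shielded mice. Pfkp, the platelet-type subunit, was not called (0.39 ± 0.16 in unshielded and -0.33 ± 0.17 in shielded mice). In shielded mice 3 of 15 alternatives called it lower, among them without shielded LPS library 3 (-0.52) or without shielded library 2 without LPS (-0.47). In unshielded mice 4 of 13 alternatives called it higher. Its LPS effect was called higher in unshielded than in shielded mice in 5 of 20 alternatives. Exons of Pfkp overlap those of Pitrm1 and exons of Pfkm those of Senp1, each on the opposite strand, so both are uncertain. Per kb, Pfkl made up 70.4 ± 5.47% of the 3 subunits in unshielded LPS libraries, against 45.7 ± 0.879% without LPS, and 90.7 ± 4.87% in shielded LPS libraries, against 60.2 ± 4.26% without LPS.

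The regulator Pfkfb3 had the largest log2 fold change of all members in both kinds of mice. It makes fructose 2,6-bisphosphate, the strongest activator of phosphofructokinase. Its level was 871, 1490.5 and 1249.8 CPM in unshielded LPS libraries, against 192, 199 and 195 CPM without LPS, and 2116, 2296 and 1457 CPM in shielded LPS libraries, against 249.8, 290.5 and 225 CPM without LPS. The lowest LPS library lay above every library without LPS. The log2 fold change was 2.62 ± 0.21 (SE; edgeR adjusted p = 1.48e-06) in unshielded and 2.94 ± 0.21 (SE; edgeR adjusted p = 2.36e-07) in shielded mice. Pfkfb4, a second such enzyme, had 60.5, 64.5 and 70.1 CPM in shielded LPS libraries, against 85.1, 81.4 and 76.9 CPM without LPS, and 107, 107 and 92.04 CPM in unshielded LPS libraries, against 108, 95.05 and 94.8 CPM without LPS. It fell, with a log2 fold change of -0.32 ± 0.09 in shielded mice (edgeR adjusted p = 0.00856; not called with the covariate, -0.25) and was at 0.042 ± 0.09 in unshielded mice (edgeR adjusted p = 0.721), where the groups overlapped. Pfkfb3 made up 87.0 ± 3.57% of the 4 PFKFB genes per kb in unshielded LPS libraries, against 53.2 ± 1.70% without LPS, and 94.3 ± 1.72% in shielded LPS libraries, against 64.1 ± 2.68% without LPS. Tigar, a phosphatase that breaks fructose 2,6-bisphosphate down, also rose. It had 19.0, 20.6 and 15.9 CPM in unshielded LPS libraries, against 11.2, 10.8 and 10.4 CPM without LPS, and 33.2, 29.6 and 24.5 CPM in shielded LPS libraries, against 11.2, 10.3 and 8.84 CPM without LPS. Its log2 fold change was 0.78 ± 0.14 (SE; edgeR adjusted p = 0.000557) in unshielded and 1.52 ± 0.14 (SE; edgeR adjusted p = 1.16e-06) in shielded mice.

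Gpi1, glucose 6-phosphate isomerase, had 322, 312 and 272 CPM in shielded LPS libraries, against 265, 236 and 248 CPM without LPS, and 336, 358 and 294 CPM in unshielded LPS libraries, against 345, 307 and 312 CPM without LPS. It was higher in shielded mice under TMM scaling (0.27 ± 0.10, edgeR adjusted p = 0.0305) and lower, at -0.079, with library totals; in unshielded mice it was 0.037 ± 0.10 under TMM scaling (edgeR adjusted p = 0.786) and -0.26 with library totals. Its call in shielded mice was lost without shielded LPS library 1 or 2 or shielded library 2 or 3 without LPS (0.23 to 0.29). It was also lost with the neuronal and oligodendrocyte covariate (0.061), without the 2 libraries with conflicting fields (0.19) and with no filter on low counts (0.24).

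From aldolase to pyruvate kinase all 7 enzymes rose with LPS in both kinds of mice; with library totals all 7 were still positive, but Aldoa (0.08), Tpi1 (0.11) and Eno1 (0.17) were not called in unshielded mice, nor Eno1 in shielded mice (0.15). Their median log2 fold change was 0.71 in unshielded and 0.95 in shielded mice. Pgk1, phosphoglycerate kinase, which makes ATP, had the smallest p of the 7 in both kinds of mice, with 54.4, 62.2 and 50.9 CPM in unshielded LPS libraries, against 28.7, 26.1 and 27.0 CPM without LPS, and 108, 91.7 and 85.0 CPM in shielded LPS libraries, against 35.7, 33.1 and 31.2 CPM without LPS. No LPS library overlapped the others of its kind of mouse, and the log2 fold changes were 1.03 ± 0.11 (SE; edgeR adjusted p = 9.00e-06) in unshielded and 1.51 ± 0.11 (SE; edgeR adjusted p = 1.65e-07) in shielded mice. Pkm, the pyruvate kinase gene, had 1189.9, 1394 and 1068 CPM in unshielded LPS libraries, against 589, 538 and 566 CPM without LPS, and 1894, 1652 and 1403 CPM in shielded LPS libraries, against 680.1, 649 and 637 CPM without LPS. All LPS libraries lay above all others, and Pkm rose by 1.11 ± 0.12 in unshielded and 1.33 ± 0.13 in shielded mice (edgeR adjusted p = 1.90e-05 and 1.71e-06). Gapdh, glyceraldehyde 3-phosphate dehydrogenase and a common reference gene in expression assays, had 449, 530.1 and 371 CPM in unshielded LPS libraries, against 287, 265 and 272 CPM without LPS, and 676, 639 and 509 CPM in shielded LPS libraries, against 325, 316 and 302 CPM without LPS. It rose by 0.71 ± 0.13 and 0.95 ± 0.13 (edgeR adjusted p = 0.000937 and 5.25e-05), with no overlap. Reads of Gapdh can be shared with 78 near-identical copies, of which 74 are in the table with 3.36% of its counts.

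Aldoa, aldolase A, had 452, 501 and 397 CPM in unshielded LPS libraries, against 368, 341 and 327 CPM without LPS, and 740.2, 653 and 579 CPM in shielded LPS libraries, against 432, 401 and 416 CPM without LPS. The rise was 0.38 ± 0.11 in unshielded and 0.66 ± 0.11 in shielded mice (edgeR adjusted p = 0.015 and 0.000248). Pgam1, phosphoglycerate mutase, had 29.5, 35.5 and 27.5 CPM in unshielded LPS libraries, against 18.6, 18.3 and 17.2 CPM without LPS, and 49.8, 42.3 and 32.4 CPM in shielded LPS libraries, against 20.1, 18.3 and 19.5 CPM without LPS. It rose by 0.77 ± 0.14 and 1.10 ± 0.14 (edgeR adjusted p = 0.000734 and 2.19e-05). Eno1, enolase 1, rose by 0.47 ± 0.12 and 0.51 ± 0.12 (edgeR adjusted p = 0.00582 and 0.00229). The rise of Tpi1, triose phosphate isomerase, was called in both kinds of mice (0.41 ± 0.15 in unshielded mice, where the groups overlapped, and 0.85 ± 0.15 in shielded mice; edgeR adjusted p = 0.0436 and 0.000347). In unshielded mice Aldoa lost its call without LPS library 1 or without library 2 or 3 without LPS (0.31 to 0.35), and Tpi1 without LPS library 1 or 2 or any of the 3 without LPS (0.30 to 0.47). Tpi1 also lost its call there with the neuronal and oligodendrocyte covariate. In shielded mice Aldoa, Tpi1 and Eno1 were not called with the neuronal and oligodendrocyte covariate (0.35, 0.35 and 0.16), and Eno1 also not without the 2 libraries with conflicting fields (0.46).

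Ldha, which turns pyruvate into lactate, had the smallest p of all members in both kinds of mice. Its level was 516, 577 and 503 CPM in unshielded LPS libraries, against 156, 142 and 143 CPM without LPS, and 1038, 943 and 783 CPM in shielded LPS libraries, against 173, 159 and 163 CPM without LPS. Every LPS library lay far above every library without LPS. The log2 fold change was 1.86 ± 0.11 (SE; edgeR adjusted p = 2.10e-07) in unshielded and 2.48 ± 0.11 (SE; edgeR adjusted p = 1.68e-08) in shielded mice. The promoter of Ldha, printed above, held 7 core matches, more than any other member's. Ldhb, the isoform that favours the reverse reaction, is named after its values were seen: it had 90.9, 56.8 and 66.7 CPM in unshielded LPS libraries, against 86.1, 144 and 85.9 CPM without LPS, and 235, 264 and 228 CPM in shielded LPS libraries, against 368, 403 and 325 CPM without LPS. It fell, with a log2 fold change of -0.56 ± 0.21 and -0.59 ± 0.21 (edgeR adjusted p = 0.0498 and 0.0252). Against shielded mice, Ldhb was lower in unshielded mice, with a log2 fold change of -1.76 ± 0.21 after LPS and -1.80 ± 0.22 without LPS (edgeR adjusted p = 5.92e-05 and 0.000386). Per kb, Ldha made up 78.0 ± 4.95% of the pair in unshielded LPS libraries, against 40.7 ± 7.78% without LPS, and 64.2 ± 3.05% in shielded LPS libraries, against 17.7 ± 1.81% without LPS.

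The kinases that inactivate pyruvate dehydrogenase did not move together. Pdk1, itself a known HIF-1 target, had 87.7, 85.7 and 94.2 CPM in shielded LPS libraries, against 152, 169 and 139 CPM without LPS, and 70.4, 68.4 and 50.7 CPM in unshielded LPS libraries, against 74.0, 92.4 and 73.0 CPM without LPS. The groups did not overlap, and Pdk1 fell, with a log2 fold change of -0.78 ± 0.13 in shielded mice (edgeR adjusted p = 0.000242). In unshielded mice its log2 fold change was -0.34 ± 0.13 (edgeR adjusted p = 0.0566), and it was called lower without LPS library 1 (-0.45) or without library 1 or 3 without LPS (-0.42 and -0.43). Pdk4, a second kinase, rose by 1.33 ± 0.38 and 2.06 ± 0.38 (edgeR adjusted p = 0.0132 and 0.000513) but reached at most 4.67 CPM in any library. In unshielded mice the call was lost without LPS library 1 or without library 1 or 2 without LPS (0.94 to 1.19). Outside the 33 genes, Pdk3 rose by 0.94 ± 0.10 and 1.25 ± 0.09 and Pdk2 fell, with a log2 fold change of -0.57 ± 0.14 and -1.66 ± 0.15, with edgeR adjusted p of at most 0.00582. Per kb Pdk1 made up 37.4 ± 2.00% of the 4 kinases in shielded LPS libraries, against 57.9 ± 1.87% without LPS, and Pdk3 51.3 ± 4.59% in shielded LPS libraries, against 19.5 ± 1.29% without LPS. Pdha1, the catalytic α subunit of pyruvate dehydrogenase, had 69.98, 73.5 and 68.9 CPM in unshielded LPS libraries, against 49.5, 48.5 and 44.1 CPM without LPS, and 98.3, 100.5 and 92.8 CPM in shielded LPS libraries, against 51.7, 49.3 and 44.5 CPM without LPS. It rose by 0.58 ± 0.08 and 1.003 ± 0.08 (edgeR adjusted p = 9.02e-05 and 4.39e-07), with no overlap of the groups. Over 603 bases exons of Pdha1 overlap those of Map3k15 on the opposite strand. Strand use is unknown, so reads of the 2 genes there may be mixed.

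**Figure D3:**
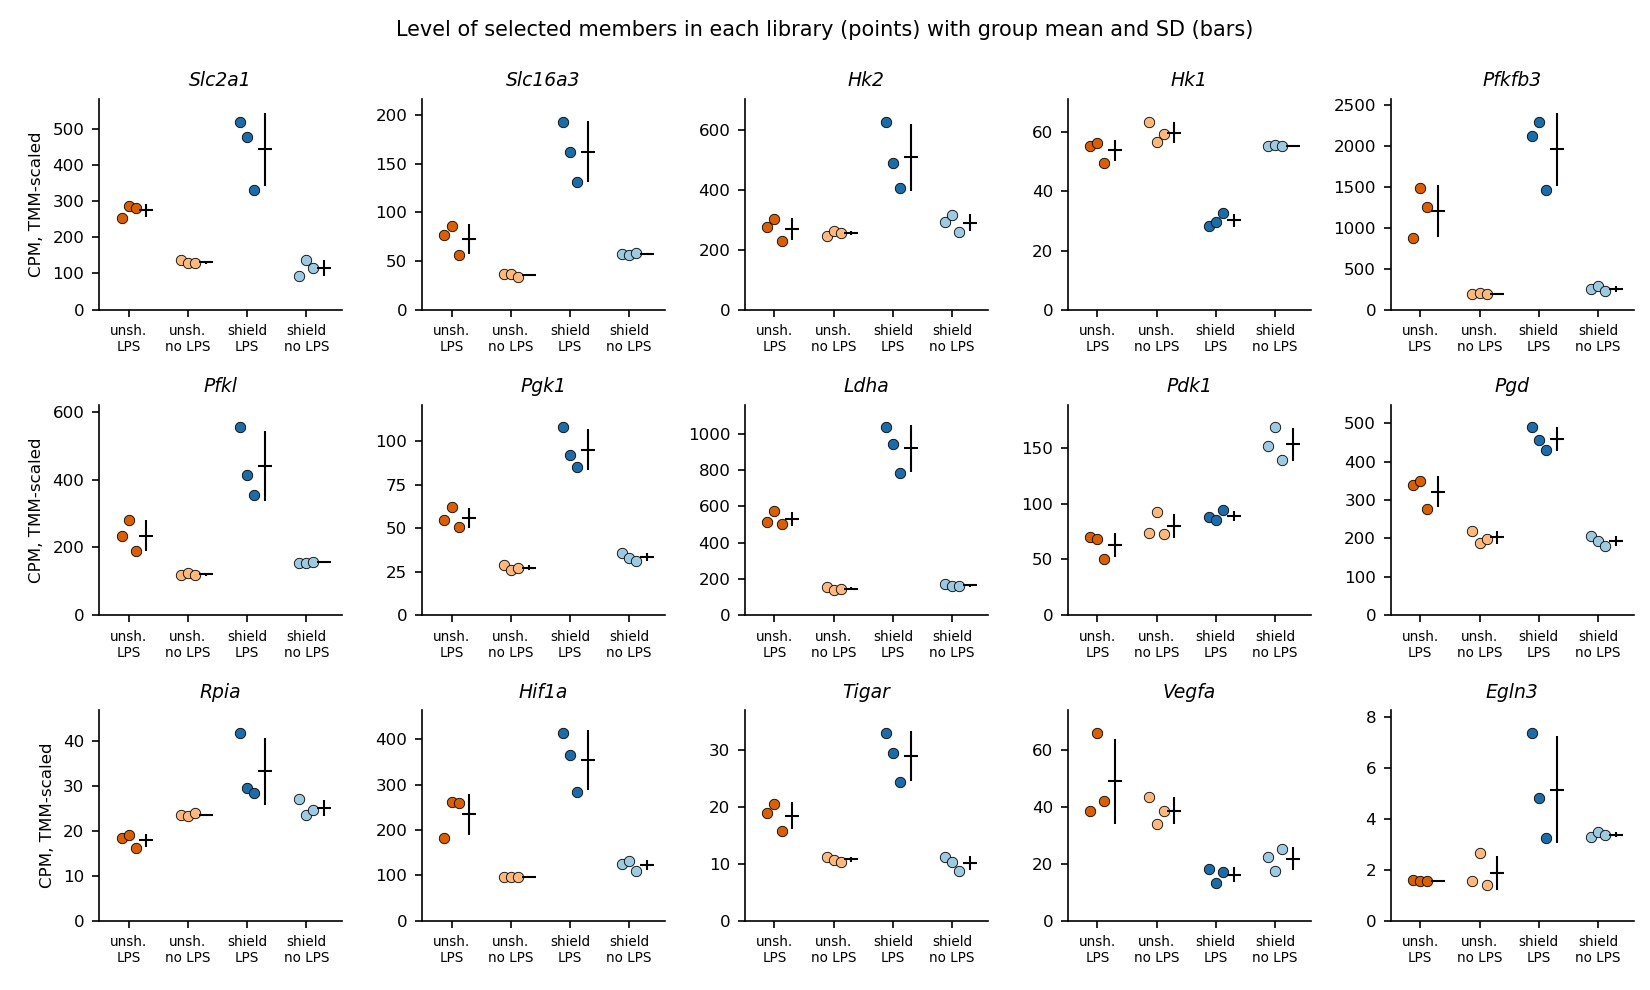
Level of 15 members in each library, in CPM after TMM scaling on linear axes from 0, with the mean and SD of the 3 libraries of a group as a bar beside the points. LPS libraries of Ldha, Pfkfb3 and Pgk1 lie above all libraries without LPS, Hk1 is low in shielded LPS libraries alone, and Rpia lies on different sides of its own no-LPS group in unshielded and shielded mice.

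In the pentose phosphate pathway Pgd rose in both kinds of mice, and G6pdx and Tkt in shielded mice. Pgd, 6-phosphogluconate dehydrogenase, had 339, 351 and 276 CPM in unshielded LPS libraries, against 220.2, 189 and 198 CPM without LPS, and 490.2, 457 and 429.6 CPM in shielded LPS libraries, against 206, 194 and 181 CPM without LPS. No LPS library overlapped the others, and it rose by 0.67 ± 0.11 in unshielded and 1.25 ± 0.11 in shielded mice (edgeR adjusted p = 0.000328 and 9.63e-07). G6pdx, glucose 6-phosphate dehydrogenase, the first enzyme of the branch, had 112, 96.4 and 92.9 CPM in shielded LPS libraries, against 58.4, 56.8 and 49.1 CPM without LPS, and 73.1, 72.3 and 56.7 CPM in unshielded LPS libraries, against 59.9, 53.8 and 56.4 CPM without LPS. It rose by 0.87 ± 0.11 in shielded mice (edgeR adjusted p = 2.69e-05), where the groups were apart. In unshielded mice the groups overlapped and the log2 fold change was 0.25 ± 0.11 (edgeR adjusted p = 0.0949; called without LPS library 3, 0.36). Exons of G6pdx overlap those of Ikbkg on the opposite strand.

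The non-oxidative enzymes followed no single course. Tkt, transketolase, had 257, 254 and 238 CPM in shielded LPS libraries, against 177, 166 and 163 CPM without LPS, and 189.5, 196 and 159 CPM in unshielded LPS libraries, against 173, 152 and 151 CPM without LPS. It rose by 0.57 ± 0.10 in shielded mice (edgeR adjusted p = 0.00024) and was at 0.19 ± 0.10 in unshielded mice (edgeR adjusted p = 0.118), where it was called without LPS library 3 (0.28). Rpia, ribose 5-phosphate isomerase, was the only member called in opposite directions: it had 18.6, 19.0 and 16.3 CPM in unshielded LPS libraries, against 23.6, 23.4 and 23.9 CPM without LPS, and 42.0, 29.6 and 28.6 CPM in shielded LPS libraries, against 27.2, 23.6 and 24.7 CPM without LPS. It fell, with a log2 fold change of -0.40 ± 0.13 in unshielded mice (edgeR adjusted p = 0.0279) and rose by 0.41 ± 0.13 in shielded mice (edgeR adjusted p = 0.015), with no overlap in either. The first call was lost without unshielded LPS library 3 or any 1 of the 3 libraries without LPS (-0.43 to -0.33), and the second without shielded LPS library 1 or shielded library 2 without LPS (0.22 and 0.37), with both conflicting libraries left out (0.30) with library totals (0.05) and with the covariate (-0.016). Taldo1, transaldolase, rose by 0.31 ± 0.09 in unshielded mice (edgeR adjusted p = 0.0138), a call lost without LPS library 1 or library 2 or 3 without LPS (0.22 to 0.28). In shielded mice Taldo1 was at 0.13 ± 0.09 under TMM scaling and lower, at -0.22, with library totals.

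Among the oxygen-sensing genes Hif1a itself rose in both kinds of mice. It encodes HIF-1α and had 183, 261 and 259.99 CPM in unshielded LPS libraries, against 97.3, 97.5 and 95.3 CPM without LPS, and 415, 366 and 283 CPM in shielded LPS libraries, against 126, 132 and 110.02 CPM without LPS. Every LPS library lay above all others, and the rise was 1.28 ± 0.16 (SE; edgeR adjusted p = 3.65e-05) in unshielded and 1.53 ± 0.16 (SE; edgeR adjusted p = 3.55e-06) in shielded mice. Egln1, the oxygen-dependent prolyl hydroxylase that marks HIF-1α for degradation, was higher in shielded mice under TMM scaling (0.36 ± 0.12, edgeR adjusted p = 0.0193) and not with library totals (-0.0043); in unshielded mice it was at 0.16 ± 0.12 (edgeR adjusted p = 0.286). The shielded call of Egln1 was lost without shielded LPS library 1 or 2 or shielded library 1 or 2 without LPS (0.27 to 0.36), with the neuronal and oligodendrocyte covariate (0.012) and without the 2 libraries with conflicting fields (0.38). Egln3, a related hydroxylase, stood at 1.604, 1.54 and 1.57 CPM in unshielded LPS libraries, against 1.55, 2.65 and 1.41 CPM without LPS, and 7.39, 4.83 and 3.23 CPM in shielded LPS libraries, against 3.28, 3.49 and 3.38 CPM without LPS. It was not called in either kind of mouse (-0.22 ± 0.30 and 0.61 ± 0.29), and was called higher in shielded mice without shielded LPS library 3 (0.89).

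Vegfa, the vascular growth factor and a textbook HIF-1 target, had 38.7, 66.1 and 42.1 CPM in unshielded LPS libraries, against 43.5, 33.8 and 38.7 CPM without LPS, and 18.2, 13.3 and 17.2 CPM in shielded LPS libraries, against 22.5, 17.5 and 25.3 CPM without LPS. LPS and no-LPS groups overlapped in both kinds of mice. The log2 fold change was 0.34 ± 0.20 in unshielded mice (edgeR adjusted p = 0.2) and -0.43 ± 0.21 in shielded mice (edgeR adjusted p = 0.0908); with the replicate numbers as a block the second was called lower (-0.43, edgeR adjusted p = 0.0112), as it was without shielded library 2 without LPS (-0.55). Bnip3, a mitophagy receptor and HIF-1 target, rose by 0.34 ± 0.11 in unshielded mice (edgeR adjusted p = 0.0279), a call lost without LPS library 1 or 2 or library 2 or 3 without LPS (0.20 to 0.33). That call was also lost with the neuronal and oligodendrocyte covariate. In shielded mice Bnip3 was at 0.12 ± 0.11 under TMM scaling and lower, at -0.23, with library totals.

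The other genes of the same pathways were read from lists of 109 genes, of which 101 were tested. In unshielded mice 43 were higher and 22 lower after LPS, where 24.3% of all tested genes were higher and 18.8% lower. In shielded mice 51 were higher and 29 lower, where 32.4% of all tested genes were higher and 35.1% lower. The same shares are the background for each list below, and no set was tested. Of 20 genes listed for the tricarboxylic acid cycle, 11 rose and 3 fell in unshielded and 16 rose and 4 fell in shielded mice. The cycle oxidises acetyl units in mitochondria, and its list here also holds cytosolic isoforms such as Idh1. Idh3a, a subunit of the NAD-dependent isocitrate dehydrogenase, had 68.5, 72.4 and 65.4 CPM in unshielded LPS libraries, against 40.0, 39.1 and 37.5 CPM without LPS, and 156, 134 and 123 CPM in shielded LPS libraries, against 46.0, 40.6 and 42.7 CPM without LPS. It rose by 0.82 ± 0.09 and 1.67 ± 0.09 (edgeR adjusted p = 2.12e-05 and 4.33e-08). Idh1, the cytosolic NADP-dependent isocitrate dehydrogenase, had 25.3, 19.8 and 21.4 CPM in unshielded LPS libraries, against 55.7, 46.6 and 47.3 CPM without LPS, and 10.9, 12.1 and 15.6 CPM in shielded LPS libraries, against 43.5, 43.3 and 37.5 CPM without LPS. It fell, with a log2 fold change of -1.17 ± 0.13 and -1.68 ± 0.14 (edgeR adjusted p = 2.33e-05 and 6.03e-07), with no overlap.

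Of 28 tested hypoxia genes outside the members 13 rose and 4 fell in unshielded and 14 rose and 5 fell in shielded mice. Ddit4, an inhibitor of mTORC1 that hypoxia and glucocorticoids both induce, had 360.4, 334 and 275 CPM in unshielded LPS libraries, against 16.9, 18.0 and 28.8 CPM without LPS, and 413, 485 and 405 CPM in shielded LPS libraries, against 24.0, 25.3 and 27.5 CPM without LPS. It rose by 3.93 ± 0.20 and 4.08 ± 0.20 (edgeR adjusted p = 9.47e-08 and 2.19e-08). Arnt2, a HIF partner best known in neurons, fell, with a log2 fold change of -1.78 ± 0.38 in shielded mice (edgeR adjusted p = 0.00192), where it was not called with the neuronal and oligodendrocyte covariate (-0.36), and was at -0.93 ± 0.37 in unshielded mice (edgeR adjusted p = 0.0603; called without unshielded library 1 without LPS, -1.12). Car12, a carbonic anhydrase, fell, with a log2 fold change of -1.19 ± 0.29 and -1.23 ± 0.31 (edgeR adjusted p = 0.00585 and 0.00389). Among 8 tested pentose phosphate genes 4 rose in unshielded and 5 in shielded mice and none fell in either. Prps1, which turns ribose 5-phosphate into the precursor of nucleotides, rose by 1.27 ± 0.10 and 1.74 ± 0.10 (edgeR adjusted p = 8.81e-07 and 3.79e-08). The 22 tested glycolysis isoforms and glycogen genes were split, with 6 higher and 7 lower in unshielded and 7 higher and 11 lower in shielded mice. Pgm2, a phosphoglucomutase, rose by 1.08 ± 0.09 and 1.68 ± 0.09 (edgeR adjusted p = 1.81e-06 and 2.92e-08). Pgam2, the muscle-type phosphoglycerate mutase, rose by 1.69 ± 0.26 in unshielded mice (edgeR adjusted p = 0.00019) while reaching at most 4.68 CPM in any library.

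Among 15 lactate and pyruvate genes 7 rose and 4 fell in unshielded and 6 rose and 5 fell in shielded mice. Pcx, pyruvate carboxylase, which feeds the tricarboxylic acid cycle, fell, with a log2 fold change of -0.75 ± 0.12 in unshielded and -0.60 ± 0.12 in shielded mice (edgeR adjusted p = 0.000235 and 0.00071). Ldhd, the D-lactate dehydrogenase, rose by 2.74 ± 0.25 in unshielded mice (edgeR adjusted p = 4.65e-06), but 2246 bases of its exons lie opposite those of Znrf1, so its reads are uncertain. Of the 8 transporters 2 rose and 4 fell in unshielded and 3 rose and 4 fell in shielded mice. P4ha1, a collagen prolyl hydroxylase and HIF-1 target, was picked after its values were seen because it was called in opposite directions like Rpia. It fell, with a log2 fold change of -0.45 ± 0.13 in unshielded mice (edgeR adjusted p = 0.0153) and rose by 0.45 ± 0.13 in shielded mice (edgeR adjusted p = 0.00944).

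**Figure D4:**
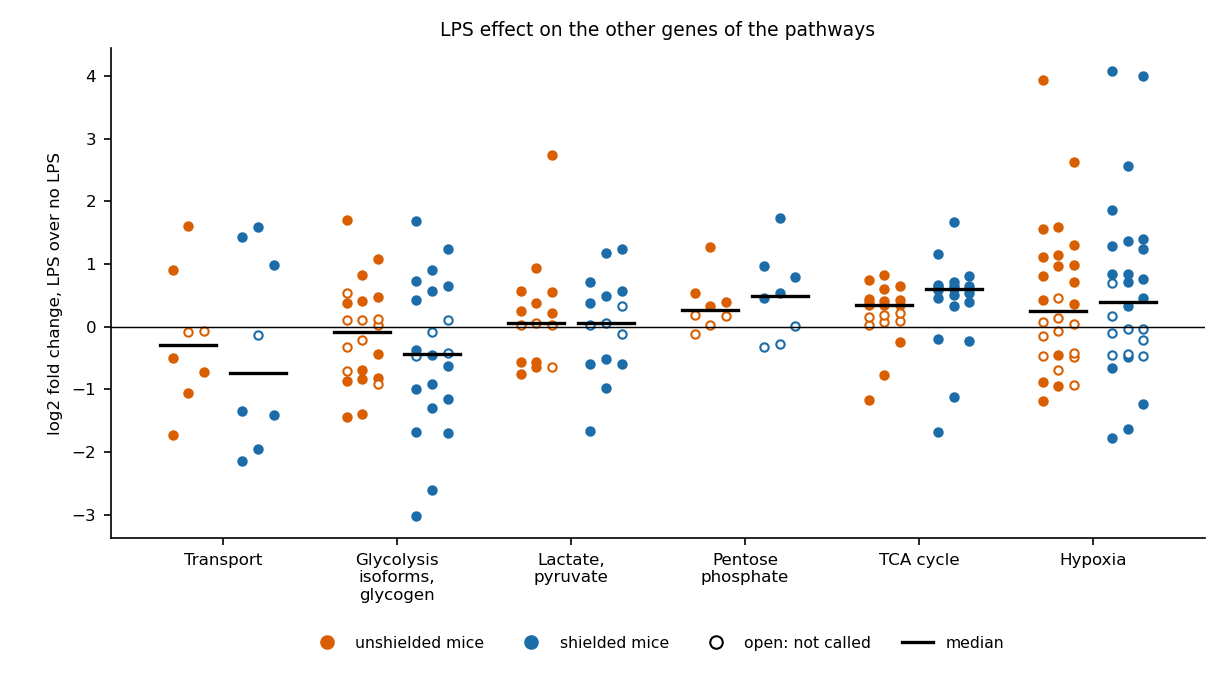
Log2 fold change, LPS over no LPS, of the tested genes of 6 further lists in unshielded mice (orange) and shielded mice (blue); each point is 1 gene, open points did not pass an edgeR adjusted p of 0.05, and black lines are medians. Genes listed for the tricarboxylic acid cycle, cytosolic isoforms included, lie mostly above 0, with medians of 0.34 in unshielded and 0.59 in shielded mice. Glycolysis isoforms lie on both sides.

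Whether the response to LPS differed by shield was tested as a difference of differences, unshielded minus shielded, over all 12 libraries. It was called for 10 of the 33, of which 1 was higher and 9 lower in unshielded mice, where 4.06% of all tested genes were higher and 9.25% lower. The estimate was negative for 24 members and positive for 9, with a median of -0.32 against 0.08 over all genes. The 9 with the lower LPS effect in unshielded mice were Slc2a1 (-0.88 ± 0.23, edgeR adjusted p = 0.0254), Hk2 (-0.74 ± 0.21, 0.0364), Tigar (-0.74 ± 0.19, 0.023), Pgk1 (-0.48 ± 0.15, 0.0499), Ldha (-0.62 ± 0.15, 0.0197), Pdha1 (-0.42 ± 0.11, 0.0272), G6pdx (-0.63 ± 0.16, 0.0229), Pgd (-0.58 ± 0.15, 0.0266) and Rpia (-0.81 ± 0.19, 0.0145), each with its SE and edgeR adjusted p. Hk1 had the opposite sign (0.73 ± 0.11, edgeR adjusted p = 0.00283); it fell in shielded mice. All these differences are on the log2 scale. With the neuronal and oligodendrocyte covariate 7 of the 10 were not called, namely Slc2a1 (-0.56), Hk2 (-0.39), Tigar (-0.48), Pgk1 (-0.28), Pdha1 (-0.35), G6pdx (-0.46) and Pgd (-0.45), while Hk1, Rpia and Ldha kept their calls. The same difference was positive for 9 of 9 neuronal markers, with a median of 0.85, and for 8 of 8 oligodendrocyte markers, with a median of 0.86, none of them called. With no filter on low counts Tigar, Pgk1, Ldha, Pdha1, G6pdx and Pgd were not called (-0.66, -0.39, -0.54, -0.34, -0.54 and -0.50).

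Leaving out single libraries moved the count of lower members between 2 and 15. Over all genes the lower calls moved as well, from 1142 of 19403 without unshielded LPS library 3 to 3440 of 19504 without shielded LPS library 3, against 1745 of 18875 with all libraries. The count of lower members was 15 without shielded LPS library 3, the library with the most neuronal marker RNA of its group. It was 11 without unshielded LPS library 2, where 2174 of 19441 genes were lower. The part of neuronal RNA in these counts was not tested. It was 7 without unshielded library 3 without LPS, and 6 without shielded LPS library 1, unshielded LPS library 1, shielded library 1 without LPS or unshielded library 2 without LPS. It was 5 without shielded LPS library 2 or shielded library 2 without LPS, 3 without unshielded LPS library 3, and 2 without shielded library 3 without LPS or unshielded library 1 without LPS. Over the leave-outs that ended a call, the estimate was -0.81 to -0.60 for Hk2, -0.57 to -0.41 for Pgk1, -0.93 to -0.79 for Slc2a1, -0.45 to -0.41 for Pdha1, -0.58 to -0.48 for Pgd, -0.76 to -0.65 for Tigar, -0.64 to -0.60 for G6pdx and -0.60 to -0.59 for Ldha. Hk1 and Rpia held without any 1 library. Without both libraries with conflicting fields none of the 33 was called by edgeR at an adjusted p below 0.05, at log2 differences such as -1.19 for Slc2a1, 0.72 for Hk1, -0.70 for Rpia and -0.56 for Ldha, in a design with 1 shielded library without LPS. Over all genes that fit called 83 higher and 65 lower, with 3433 genes at an unadjusted p below 0.05.

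The levels in unshielded mice after LPS were lower than in shielded mice for most of the pathway. At an edgeR adjusted p below 0.05, 5 members were higher and 20 lower, where 19.1% of all tested genes were higher and 25.6% lower. The median log2 fold change of the members was -0.46, against 0.07 over all genes tested. This comparison shares its libraries with the LPS comparisons above and is not independent of them. The largest decreases were in Egln3 (-1.71 ± 0.30, edgeR adjusted p = 0.000558) and Slc16a3 (-1.16 ± 0.15, edgeR adjusted p = 8.65e-05), and Hk2 and Pfkl stood at -0.92 ± 0.15 and -0.91 ± 0.16 (edgeR adjusted p = 0.000349 and 0.000589). All 4 were without overlap between the groups. Along the rest of the pathway Ldha was at -0.79 ± 0.11, Pgk1 at -0.77 ± 0.10, Rpia at -0.90 ± 0.13 and Hif1a at -0.60 ± 0.15, with edgeR adjusted p between 9.12e-05 and 0.00761. Of the 7 enzymes from aldolase to pyruvate kinase 5 were lower, and Tpi1 (-0.37 ± 0.15) and Eno1 (-0.19 ± 0.12) were not called. The 5 higher members were Vegfa (1.59 ± 0.21), Pfkp (1.19 ± 0.17), Pfkm (1.17 ± 0.25), Hk1 (0.84 ± 0.08) and Pfkfb4 (0.65 ± 0.09), with edgeR adjusted p of at most 0.00314 for these.

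Several of the 20 calls after LPS depended on the fit or on single libraries. The replicate block ended those of Pfkfb3 (-0.66), Hif1a (-0.55), Pdk1 (-0.46), Pgam1 (-0.37) and Pkm (-0.39), and the 2 groups fitted alone ended those of Pfkfb3 (-0.65), Hif1a (-0.55), Gapdh (-0.39), Pgam1 (-0.38) and Pkm (-0.39), leaving 15 lower in each. Of all 17660 genes the block called 3470 lower and the groups alone 3743. Gapdh was not called without shielded LPS library 1 (-0.39) or unshielded LPS library 3 (-0.32), Pkm not without unshielded LPS library 3 (-0.36) and Pgam1 not without shielded LPS library 1 or 2 or unshielded LPS library 1 or 3 (-0.46 to -0.31). Tpi1, Eno1 and Egln1 were called lower without shielded LPS library 3 (-0.56, -0.35 and -0.43), and Tpi1 and Egln1 also without unshielded LPS library 2 (-0.47 and -0.32). With the neuronal and oligodendrocyte covariate Slc2a1, Pfkfb3, Gapdh, Pgam1, Pkm and Hif1a were not called (-0.35, -0.33, -0.18, -0.11, -0.19 and -0.27). The summed levels of marrow-derived macrophage markers, given above, were higher in each unshielded LPS library than in any shielded LPS library, and their part in these differences was not tested.

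Without LPS the number of members that differed between the kinds of mice depended on the fit. At an edgeR adjusted p below 0.05, 2 members were higher and 2 lower in unshielded mice, where 3.98% of all tested genes were higher and 6.85% lower. The counts were 5 higher and 7 lower with the 2 groups fitted alone, 5 and 8 with the neuronal and oligodendrocyte covariate, and 5 and 10 with the replicate block. Over all genes these fits called 1178 and 1572 of 17985, 1381 and 2037 of 18875, and 1462 and 1943 of 17985. Pdk1, whose values per library are given above, was lower in unshielded mice, with a log2 fold change of -0.94 ± 0.13 (edgeR adjusted p = 0.000685). The groups did not overlap, and the call held in every alternative that keeps the titles' grouping. Slc16a3 was lower, with a log2 fold change of -0.70 ± 0.16 (edgeR adjusted p = 0.0108), and its call was lost without unshielded library 1 or 3 without LPS (-0.71 and -0.67). Vegfa was higher by 0.83 ± 0.21 (edgeR adjusted p = 0.0239), a call lost without shielded library 1 or 2 or unshielded library 1 or 3 without LPS (0.69 to 0.84). Gpi1 was higher by 0.36 ± 0.10 (edgeR adjusted p = 0.0378), and leaving out any 1 of the 6 libraries ended its call (0.31 to 0.40). Without the libraries with conflicting fields Slc16a3, Vegfa and Gpi1 were at -0.71, 0.78 and 0.27, none of them called. Egln3 was called lower without unshielded library 2 without LPS (-1.19) and Bnip3 without unshielded library 1 without LPS (-0.43).

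**Figure D5:**
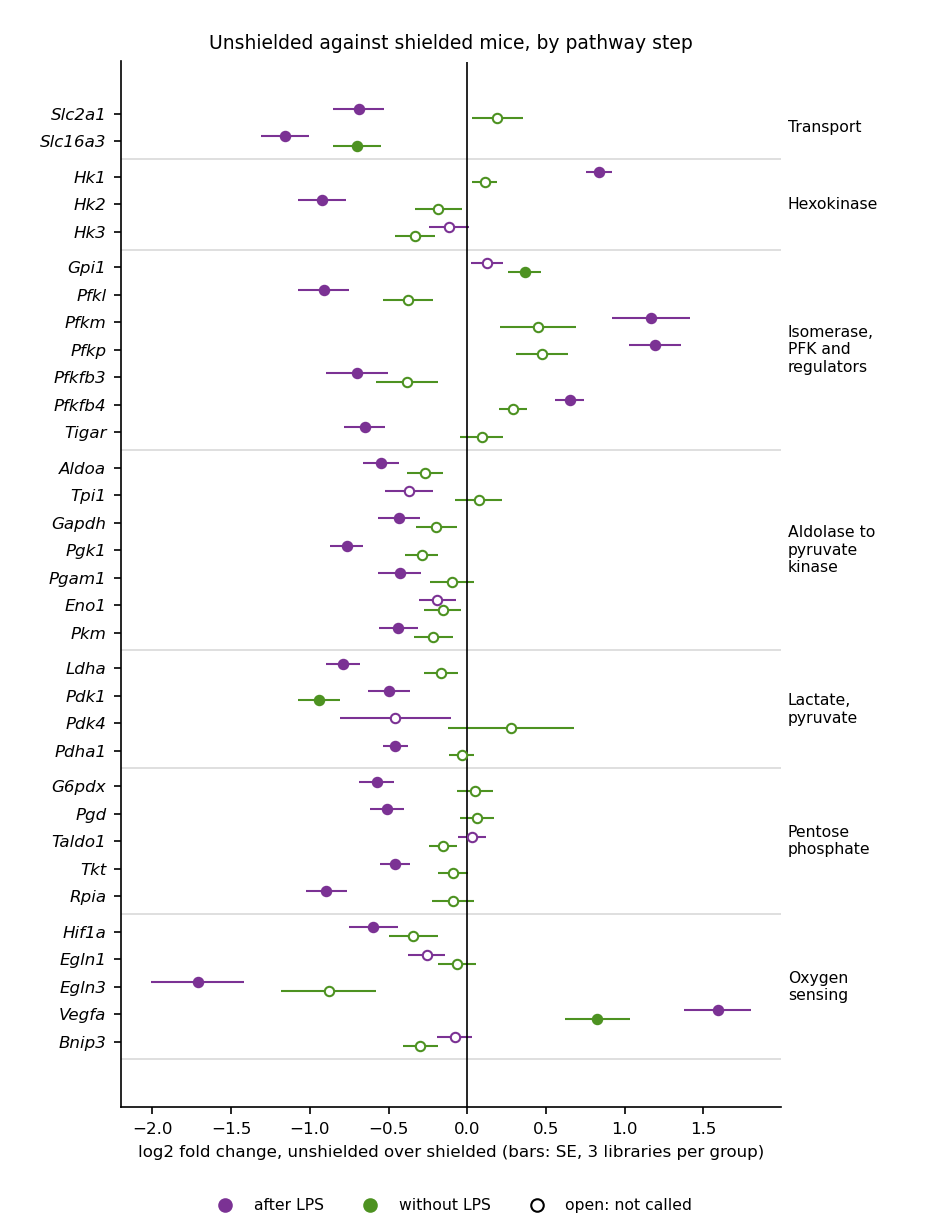
Log2 fold change of each member, unshielded over shielded mice, after LPS (purple) and without LPS (green), by pathway step; bars are the SE of the fit over 3 libraries per group and open symbols did not pass an edgeR adjusted p of 0.05. After LPS 20 members lie left of 0 past the threshold, and without LPS Slc16a3 and Pdk1 do.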

How the data were processed

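RNA-seq was measured in 12 libraries of magnetically sorted brain cells, and RNA was linearly amplified before library preparation, per the labels' protocols. FastQC, STAR, HTSeq and build mm9 are named in the submitters' processing notes, with versions, annotation and strand setting not given in the sources used here. Values deposited by the authors are raw counts, whole numbers of reads for each gene with no normalization. The table lists 36491 genes, and the lowest row total is 2.

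The 4 groups follow the titles. For shielded libraries 2 and 3 without LPS the treatment field reads LPS, so the comparisons were repeated without them and with the field followed. Nothing says that the libraries of a group are separate animals, and p-values therefore reflect only the spread among these libraries, possibly technical. Each comparison came from edgeR 4.0.16, run in R 4.3.3 (filterByExpr with minimum count 10 and minimum total 15, TMM scaling, robust quasi-likelihood fit in 1 model of 4 groups, two-sided, Benjamini-Hochberg adjusted over all 18875 genes tested, threshold 0.05). The SE of a log2 fold change is its size divided by the square root of the F statistic. CPM used TMM scaling; shares of isoforms used CPM per kb of merged exons from GENCODE vM21, made for a later build than mm9. Alternatives were DESeq2 1.42.0, other size factors, no filter, a replicate block, single libraries left out, the groups of a comparison alone, and a covariate of neuronal and oligodendrocyte levels. The code was tested on simulated counts.

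Correlations of deviations between libraries of the same number all passed 0.1 only in the LPS comparison in shielded mice (0.112, 0.194 and 0.547). Even there, shielded LPS library 1 correlated more with a library of another number (0.399). The replicate numbers of the titles were therefore not shown to pair samples. Libraries of a group were not copies of each other. The members and lists were chosen with earlier results of these data known. The rule for genes with values in every library took, per step and comparison, the called member with the smallest p, the members with the 8 smallest p in the difference of LPS effects, and members called in opposite directions by LPS and missing shield or by LPS in the 2 kinds of mice. Of the wider lists 1 gene that the rule for named genes picked is not reported here. Copies of at least 95% identity over 200 bases were sought with blastn 2.17.0 among reference transcripts. Genes that overlap a neighbour's exons are uncertain, since strand use is unknown, among them Pfkp, Pfkm, Pdha1, G6pdx, Gapdh and Gpi1. Exons of Aldoa, Bnip3, Hif1a, Hk1, Hk3, Pkm, Slc2a1, Tigar, Tkt and Tpi1 also overlap those of a neighbour, and these members are uncertain to that extent. Depth per library is given at the start.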

Additional observations from a re-analysis of the deposited data

Results flagged for a closer look

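The LPS effect differed between unshielded and shielded mice for 10 members by the edgeR test of the difference itself. The log2 difference, unshielded minus shielded, was 0.73 for Hk1, -0.81 for Rpia, -0.88 for Slc2a1, -0.74 for Tigar, -0.74 for Hk2, -0.63 for G6pdx, -0.62 for Ldha, -0.58 for Pgd, -0.48 for Pgk1 and -0.42 for Pdha1. With the neuronal and oligodendrocyte covariate the calls of Slc2a1, Hk2, Tigar, Pgk1, Pdha1, G6pdx and Pgd were lost, and those of Hk1, Rpia and Ldha were kept. None of the 10 was called without the 2 shielded libraries whose fields conflict, while the estimates kept their direction.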

How the results depend on the processing

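Over all alternatives, 2228 fold changes of the members kept their side of the threshold, 224 lost the call, 82 gained one, and 7 that were called in one of the fits changed sign. Of the 2228, 59 also changed sign with neither value called, 14 of them with the covariate, 12 with the field grouping and 7 with library totals. The LPS effects in unshielded mice that library totals turned so were those of Hk2 (-0.23), Pfkfb4 (-0.25), G6pdx (-0.051), Tkt (-0.10) and Egln1 (-0.14). Grouping 2 shielded libraries by their treatment field moved most calls. For LPS in shielded mice edgeR then called 0 members higher and 0 lower, and 0 and 0 of all 20527 genes (284 at an unadjusted p below 0.05). It called 0 and 0 members for unshielded over shielded without LPS (809 genes at that unadjusted p) and 0 and 0 for the difference of LPS effects (481 genes). In both of these it also called 0 and 0 of all 20527 genes. For unshielded over shielded after LPS it called 3 and 2 members, where 558 of 20527 genes were higher and 906 lower. Without these 2 libraries the design held 1 shielded library without LPS, and log2 values of that fit are given with the comparisons above. In unshielded mice library totals also ended the calls of Pdk4 (1.05), Taldo1 (0.017) and Bnip3 (0.043). Library totals gave 9 lower members for LPS in shielded and 6 in unshielded mice, where 9131 and 6520 of all 18875 genes were lower. With no filter on low counts, 0 members were lower for LPS in unshielded mice, 0 higher for unshielded over shielded without LPS, and 2 higher and 3 lower for the difference. Of all 36491 genes that fit called 2715 lower, 595 higher, and 750 higher and 821 lower in the same comparisons. For unshielded over shielded without LPS, DESeq2 gave 4 higher members and the groups of the comparison alone 5 higher and 7 lower. Over all genes DESeq2 called 873 of 18875 higher, and the groups alone 1178 higher and 1572 lower of 17985. DESeq2 gave 2 higher members for the difference, where 917 of all 18875 genes were higher. After LPS, 15 members were lower by shield with the groups alone and 15 with the replicate block, against 20. Of all 17660 genes these fits called 3743 and 3470 lower. The block ended the calls of Pfkfb3, Hif1a, Pdk1, Pgam1 and Pkm (0.0621, 0.0921, 0.0517, 0.0671 and 0.053, edgeR adjusted p). With the neuronal and oligodendrocyte covariate 5 were higher and 8 lower by shield without LPS, and 2 members were lower in the difference. Of all 18875 genes that fit called 1381 higher and 2037 lower by shield without LPS, and 1151 lower in the difference. The replicate block gave 4 lower members for LPS in unshielded mice, 5 higher and 10 lower by shield without LPS, and 2 higher in the difference. Over all genes it called 4371 of 18778 lower, 1462 higher and 1943 lower of 17985, and 807 of 18875 higher in these comparisons. Replicate numbers were not shown to pair samples in any comparison. In the LPS comparison in shielded mice the block changed the call of Vegfa alone. Leaving out single libraries gave 1 to 3 lower members for LPS in unshielded mice, 0 to 1 higher and 1 to 3 lower members by shield without LPS, and 1 to 4 higher and 2 to 15 lower members in the difference. Those fits tested 19224 to 19504 genes. Of these, 2584 to 3273 were lower for LPS in unshielded mice. By shield without LPS 441 to 616 were higher and 614 to 1045 lower, and in the difference 413 to 2951 were higher and 1142 to 3440 lower. Among values called in at least 1 fit, members and wider lists together, signs turned with library totals for Gpi1 (-0.079 shielded, -0.26 unshielded), Taldo1 (-0.22), Egln1 (-0.0043) and Bnip3 (-0.23) in shielded mice, with the covariate for Rpia (-0.016) in shielded mice, and with the field grouping for Idh1 (-0.15, unshielded over shielded after LPS), Pgk1 (0.014), Prps1 (0.061) and Slc2a3 (0.026) in the difference. The cause was not tested. Genes under about 5 CPM, such as Pdk4 and Egln3, rest on few counts.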
